A study of Homo sapiens with 6 samples.

Results

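The collagen chain genes were chosen by symbol: all genes named COL, number, A, number on the array, which gave 41 of 17687 genes with a symbol of their own, each read by 1 probe set. The reference gene table holds 44 such genes, and COL3A1, COL7A1 and COL17A1 are not analysed here. They were sorted by the structure their products form into 10 fibrillar chains, 6 basement membrane chains (type IV) and 25 others. The cells were U87MG, an established human glioblastoma line grown in RPMI with serum and, per the methods, kept in low serum before treatment. The 3 samples labelled UNTREATED received PBS, and the 3 labelled P-bi-TAT received 30 µM P-bi-TAT, a bivalent derivative of tetrac made to block the thyroid hormone receptor on integrin αvβ3. Exposure lasted 24 h in both groups. Whether the replicates are separate cultures is not given in the labels, and a p-value here therefore speaks only of how these 6 samples spread. RNA came from whole samples of cells, so that fewer cells with a transcript and less of it per cell cannot be told apart.

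Collagens are the triple-helical proteins of the extracellular matrix, and each helix is wound from chains that are encoded by genes of their own. Fibrillar chains such as those of type I and type V build the fibrils of connective tissue, type IV chains build the network of basement membranes, and the remaining types form beaded filaments, sit on the surface of fibrils or span the cell membrane. In brain, fibrillar collagen is scarce outside the meninges and the vessel walls, and glioblastoma cells in culture can lay down matrix of their own.

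U87MG cells had a signal above background on all arrays for few collagen chains, COL1A2 of type I and COL6A2 and COL6A3 of type VI, and for no chain of the basement membrane. After P-bi-TAT, COL6A3 was lower on each array than on any untreated array, with a log2 difference of -1.68 (standard error 0.57, 3 arrays against 3), whereas its partner COL6A2 differed by 0.32 (standard error 0.53). No chain passed an adjusted p under 0.05 (limma, smallest 0.847), as 0% of all genes did, while 7 chains, against 4.98% of all genes, were lower at 1.5-fold with an unadjusted p under 0.05. Of these, only COL6A3 and COL1A2 had a signal above background on all arrays. With each array centred on its negative control probe sets, 1 chain was lower at these limits and 2 were higher.

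Values are log2 expression values from Clariom S arrays, where several short probes report on a gene. Levels of different probe sets are not compared, because probes differ in how well they bind. The arrays were not alike. P-bi-TAT replicate 1 had a median of 3.52 over the gene probe sets, against 4.73 to 4.85 on the others, and it held 4527 distinct values against 23072 to 23438. P-bi-TAT replicates 2 and 3 resembled each other (r = 0.987) more than any pair of untreated arrays did (0.923 to 0.953). A chain was called detected on an array when it was above the 95th percentile of the 612 negative control probe sets of that array. This cutoff lay at 6.99 to 7.72 on the untreated arrays and at 5.76 to 6.09 on the P-bi-TAT arrays, while the medians of the same controls lay at 3.67 to 3.98 and at 3.20 to 3.27. The background was lower on each P-bi-TAT array, and counts with each array centred on these controls are given with the others. Of the markers of other cells, 0 of 5 endothelial, 0 of 5 fibroblast or pericyte, 0 of 4 epithelial, 0 of 4 neuronal and 0 of 5 glial genes, GFAP included, were expressed by the rule given next, SOX10 being detected on 3 arrays, and of 5 macrophage genes only CD68 was. VIM, CD44 and TNC, 3 of 5 genes of mesenchymal glioma cells, were expressed, while CHI3L1 and FN1 were not. CDKN2A and CDKN2B, which are deleted in this line, were on no array above the cutoff.

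To sort the chains by signal over background, a chain was called expressed when its distance above the cutoff, averaged over the 6 arrays, was positive. COL1A2, COL6A2 and COL6A3 met this rule, which is 3 of 41 chains (7.32%), against 30% of all genes. They comprise 1 of 10 fibrillar chains, 0 of 6 type IV chains and 2 of 25 others, both of the latter being chains of type VI collagen. Each of the 3 was detected on all 6 arrays. A further 5 chains were detected on some arrays and were not expressed by the rule, namely COL23A1 and COL12A1 on 3 arrays each, COL6A1 on 2, and COL4A2 and COL1A1 on 1 each. The other 33 chains were on no array above the cutoff. The expressed chain nearest the cutoff was COL6A2, at a mean distance of 1.72 above it on the log2 scale, and the nearest below it were COL23A1, COL12A1, COL4A2, COL6A1 and COL1A1, at -0.17, -0.27, -0.33, -0.49 and -0.95. With the median of the negative controls in its place, 28 chains passed, against 73.7% of all genes, and with the 90th percentile, a cutoff chosen after the data were seen, 7 chains passed, against 39.0%. With the 99th percentile, 2 chains passed, COL1A2 and COL6A3, against 10.9%. In the 13 chains that stayed at or below the median of the negative controls, among them COL4A1, COL11A1, COL10A1 and COL9A3, a silent gene and a probe set that binds poorly cannot be told apart.

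**Figure D1:**
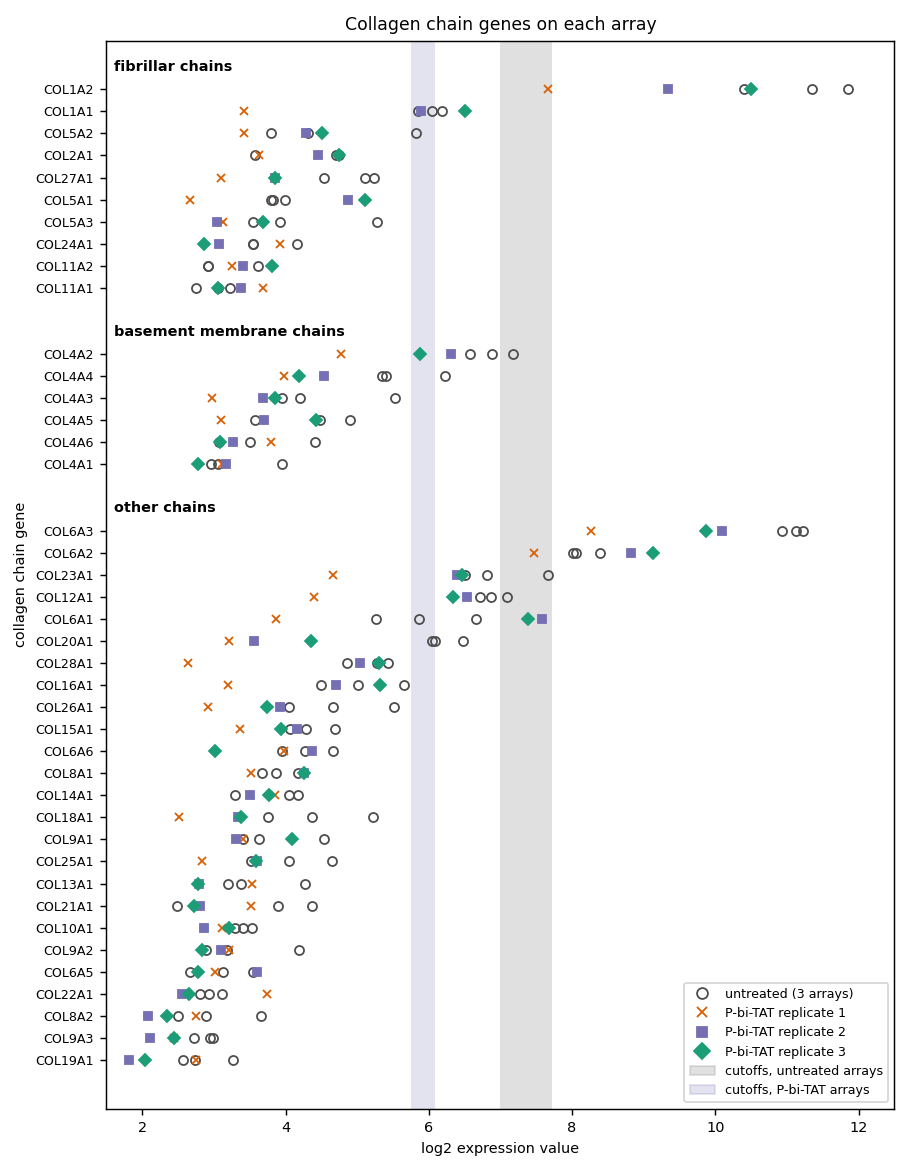
Log2 expression values of the 41 collagen chain genes on each of the 6 arrays, sorted within each class by the mean over the arrays. The shaded bands span the cutoffs of the untreated arrays (6.99 to 7.72) and of the P-bi-TAT arrays (5.76 to 6.09), and only COL1A2, COL6A3 and COL6A2 lie to the right of their own array's cutoff on all 6 arrays.

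Promoter windows are printed for COL6A3 and COL6A2, the expressed chains of type VI, whose differences between the groups were unequal, and for COL4A2, whose window overlaps that of COL4A1. RefSeq start sites (GRCh38.p14) gave windows of 300 bases, 250 before and 50 after the start, for 30 of the 41 genes. Capitals mark matches to the CCAAT box (CCAAT) and the GC box (GGGCGG), searched on both strands, and matches of the one motif do not overlap those of the other here. Of all 35116 windows in the table, 34.6% hold a CCAAT box and 45% a GC box. The window of COL6A3 (chr2:237414115-237414414, minus strand) holds neither motif, that of COL6A2 (chr21:46097862-46098161, plus strand) holds 4 GC boxes, and that of COL4A2 (chr13:110307034-110307333, plus strand) holds 1 of each.
COL6A3: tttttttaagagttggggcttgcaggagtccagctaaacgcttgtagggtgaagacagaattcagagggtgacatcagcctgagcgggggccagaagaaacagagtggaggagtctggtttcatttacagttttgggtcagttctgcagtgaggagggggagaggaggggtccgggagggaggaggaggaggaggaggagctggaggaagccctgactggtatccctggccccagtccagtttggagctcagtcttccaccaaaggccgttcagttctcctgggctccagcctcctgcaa
COL6A2: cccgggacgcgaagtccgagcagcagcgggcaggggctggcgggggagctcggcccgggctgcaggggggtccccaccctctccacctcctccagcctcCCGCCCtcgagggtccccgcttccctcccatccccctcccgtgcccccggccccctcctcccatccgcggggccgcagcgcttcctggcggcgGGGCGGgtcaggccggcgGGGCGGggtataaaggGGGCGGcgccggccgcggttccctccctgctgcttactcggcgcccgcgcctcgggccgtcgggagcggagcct
COL4A2: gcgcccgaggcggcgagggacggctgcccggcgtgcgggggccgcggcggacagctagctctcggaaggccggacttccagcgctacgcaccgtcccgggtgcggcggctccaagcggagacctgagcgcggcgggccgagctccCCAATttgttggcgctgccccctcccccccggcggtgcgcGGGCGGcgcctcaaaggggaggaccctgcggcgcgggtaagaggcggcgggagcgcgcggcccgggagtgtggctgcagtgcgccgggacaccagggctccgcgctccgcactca
COL6A3 has 4 CpG dinucleotides in its window, COL6A2 has 36 and COL4A2 has 45, against a median of 14 over all windows. COL4A1 lies on the minus strand of chromosome 13 and starts 127 bases from COL4A2 on the plus strand, so that the genes run in opposite directions and their windows share 226 bases. A match of letters is a description and says nothing of which factor binds.

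Type I collagen is the main fibrillar collagen and is wound from COL1A1 and COL1A2 products, usually with more of the former. COL1A2 was at 10.39, 11.85 and 11.35 on the untreated arrays and at 7.66, 9.35 and 10.49 on the P-bi-TAT arrays. Its values were above the cutoff on every array and lowest on the P-bi-TAT arrays 1 and 2, and the groups overlapped through P-bi-TAT replicate 3. Its mean was 11.20 ± 0.74 (SD, n = 3) untreated and 9.17 ± 1.42 (SD, n = 3) in the treated group, a log2 difference of -2.03 (standard error 0.79, unadjusted p = 0.0372, adjusted p = 0.847, limma). Without P-bi-TAT replicate 1 the difference was -1.28 (standard error 0.56, unadjusted p = 0.0495, adjusted p = 0.348, limma). COL1A1 was at 5.85, 6.05 and 6.18 on the untreated arrays and at 3.42, 5.89 and 6.51 on the P-bi-TAT arrays. It was above the cutoff only on P-bi-TAT replicate 3, and the groups overlapped. Its log2 difference was -0.75 (95% interval -2.66 to 1.15) and turned to 0.17 without P-bi-TAT replicate 1, so that a difference of either sign is within the interval.

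Type V chains join type I fibrils and set their width. COL5A1, the chain found in most type V trimers, was at 3.99, 3.83 and 3.79 on the untreated arrays and at 2.66, 4.88 and 5.11 on the P-bi-TAT arrays. P-bi-TAT replicates 2 and 3 were above each untreated array and replicate 1 was below them, with a log2 difference of 0.35 with all arrays and 1.13 without replicate 1. COL5A2, the usual partner, was at 3.79, 5.82 and 4.31 on the untreated arrays and at 3.42, 4.29 and 4.51 on the P-bi-TAT arrays, and COL5A3 was at 3.54, 5.28 and 3.92 on the untreated arrays and at 3.13, 3.04 and 3.69 on the P-bi-TAT arrays. The groups overlapped for both of these partners, and all the type V values lay below the cutoffs. Of the other fibrillar chains, COL27A1, a cartilage fibril chain, was at 5.10, 5.23 and 4.54 on the untreated arrays and at 3.10, 3.85 and 3.85 on the P-bi-TAT arrays. The treated arrays all lay under the lowest untreated one, with a log2 difference of -1.36 (standard error 0.44, unadjusted p = 0.0173, adjusted p = 0.847, limma), although no array was above its cutoff. COL2A1, the cartilage collagen, COL11A1 and COL11A2, its fibril partners, and COL24A1 had log2 differences of -0.07, 0.37, 0.34 and -0.46, none with an unadjusted p under 0.05.

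Type VI collagen forms beaded filaments around cells, and its trimer takes 1 chain each from COL6A1, COL6A2 and COL6A3. COL6A3 was at 11.22, 10.93 and 11.13 on the untreated arrays and at 8.27, 10.10 and 9.87 on the P-bi-TAT arrays. The groups did not overlap, the treated arrays being lower, and the untreated arrays lay within a narrow range. Its mean was 11.09 ± 0.15 (SD, n = 3) untreated and 9.41 ± 1.00 (SD, n = 3) in the treated group, a log2 difference of -1.68 (standard error 0.57, unadjusted p = 0.0214, adjusted p = 0.847, limma). Without P-bi-TAT replicate 1 the difference was -1.11 (standard error 0.37, unadjusted p = 0.0167, adjusted p = 0.257, limma). COL6A2 was at 8.40, 8.02 and 8.06 on the untreated arrays and at 7.48, 8.82 and 9.12 on the P-bi-TAT arrays. P-bi-TAT replicates 2 and 3 were above each untreated array and replicate 1 was below them. Its log2 difference was 0.32 (95% interval -0.95 to 1.58) and 0.82 (standard error 0.38, unadjusted p = 0.0627, adjusted p = 0.375, limma) without P-bi-TAT replicate 1. COL6A1 was at 6.66, 5.86 and 5.27 on the untreated arrays and at 3.86, 7.58 and 7.38 on the P-bi-TAT arrays. It was above the cutoff only on P-bi-TAT replicates 2 and 3, which were again above each untreated array. Its log2 difference was 0.34 (95% interval -2.10 to 2.79), and without P-bi-TAT replicate 1 it was 1.55 (standard error 0.48, unadjusted p = 0.0119, adjusted p = 0.24, limma). COL6A5 and COL6A6, later members of the type that can take the place of the COL6A3 product, had values of 2.66 to 3.60 and of 3.02 to 4.66 over the 6 arrays and were on no array above the cutoff.

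The chains of 1 trimer were also compared within each array, which removes any shift that all probe sets of an array share. These 3 comparisons were chosen after the values were seen. COL6A2 minus COL6A3 was at -2.82, -2.91 and -3.07 on the untreated arrays and at -0.79, -1.27 and -0.74 on the P-bi-TAT arrays. The groups did not overlap, and P-bi-TAT replicate 1 lay with the other treated arrays. A shift that differs with the level of a gene is not removed. On replicate 1 the median against the untreated mean was -2.46 over the expressed genes and -0.849 over the genes not expressed. There COL6A3 stood at -2.82 and COL6A2 at -0.68. On replicates 2 and 3 COL6A3 was below its untreated mean and COL6A2 above it. The mean was -2.93 ± 0.13 (SD, n = 3) untreated and -0.94 ± 0.29 (SD, n = 3) in the treated group, a shift of 2.00 on the log2 scale (exact permutation test, n = 3 per group, two-sided p = 0.1, adjusted over the 3 comparisons p = 0.1, the smallest that 3 arrays against 3 can give). Because the pairs were chosen with these values known, this p-value does not test the shift. Its adjustment also leaves out the pairs that were not chosen. Over 17 settings, the reported one included, this shift lay between 1.90 and 2.17. Many of these cannot move it, so that the range rests on fewer settings than that. Array centring, the mean of probe sets, the filter on dim probe sets and a change of test, block or prior leave it as it was. COL6A1 minus COL6A3 was at -4.56, -5.07 and -5.86 on the untreated arrays and at -4.40, -2.52 and -2.48 on the P-bi-TAT arrays. COL6A1 was above its cutoff on only 2 of the 6 arrays, P-bi-TAT replicates 2 and 3, so that on the other 4 arrays this difference is set against a value not above background. P-bi-TAT replicate 1 lay close to the untreated arrays. COL1A1 minus COL1A2 was at -4.55, -5.80 and -5.17 on the untreated arrays and at -4.25, -3.46 and -3.98 on the P-bi-TAT arrays. COL1A1 was above its cutoff on 1 of the 6 arrays only, so that this difference mostly repeats the values of COL1A2. The latter 2 differences are therefore given as values alone. For COL6A2 and COL6A3, both detected on all 6 arrays, the shift within an array is one of unequal difference and does not say which chain moved.

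**Figure D2:**
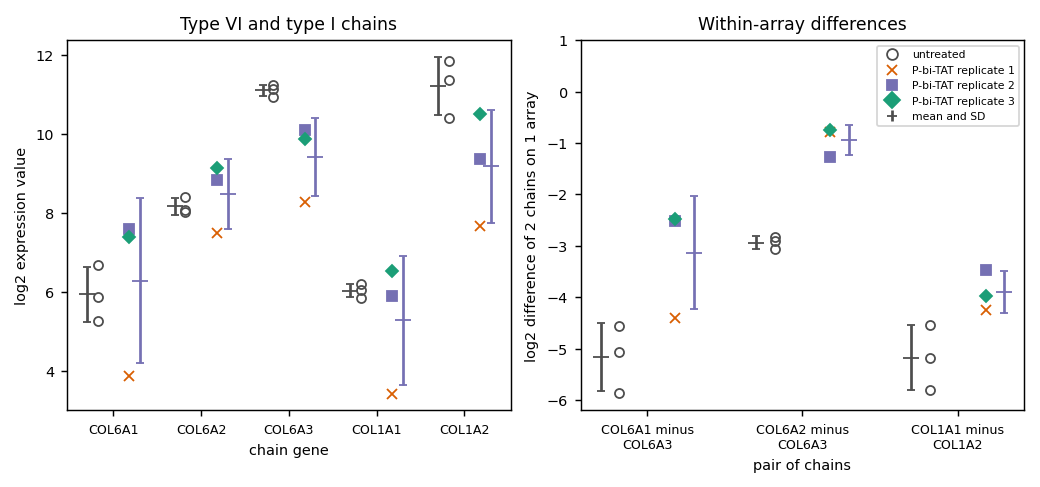
Log2 expression values of the type VI and type I chains (left) and the log2 difference between 2 chains on the same array (right), with the mean and SD of each group beside its 3 arrays. COL6A2 minus COL6A3 lies between -3.07 and -2.82 untreated and between -1.27 and -0.74 after P-bi-TAT, while the other differences involve COL6A1 or COL1A1, which were above the cutoff on 2 arrays and on 1 array.

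Type IV chains make the network of basement membranes, most of it from COL4A1 and COL4A2 products. COL4A2 was at 7.18, 6.58 and 6.88 on the untreated arrays and at 4.77, 6.31 and 5.87 on the P-bi-TAT arrays. No treated array reached the lowest untreated value, and only P-bi-TAT replicate 2 was above its cutoff. Its log2 difference was -1.23 (standard error 0.52, unadjusted p = 0.0499, adjusted p = 0.847, limma), and -0.78 without P-bi-TAT replicate 1. COL4A1, its head-to-head neighbour with the shared window printed above, was at 2.96, 3.95 and 3.06 on the untreated arrays and at 3.12, 3.17 and 2.78 on the P-bi-TAT arrays. These values are close to the medians of the negative controls, and the groups overlapped. COL4A4, a chain of kidney and inner ear membranes, was at 6.23, 5.34 and 5.40 on the untreated arrays and at 3.97, 4.54 and 4.18 on the P-bi-TAT arrays. The treated arrays all lay under the lowest untreated one without reaching the cutoff in either group, with a log2 difference of -1.43 (standard error 0.44, unadjusted p = 0.0139, adjusted p = 0.847, limma). COL4A3, which forms trimers with COL4A4 and COL4A5 products, was at 5.53, 3.94 and 4.20 on the untreated arrays and at 2.97, 3.69 and 3.86 on the P-bi-TAT arrays. The groups did not overlap, the treated arrays being lower, with a log2 difference of -1.05 (unadjusted p = 0.101, limma). COL4A5 was at 3.58, 4.47 and 4.90 on the untreated arrays and at 3.10, 3.70 and 4.43 on the P-bi-TAT arrays, and COL4A6 was at 4.41, 3.51 and 3.07 on the untreated arrays and at 3.80, 3.27 and 3.08 on the P-bi-TAT arrays. The groups overlapped for both, and their log2 differences were -0.57 and -0.28. All 6 type IV chains were below 0, as were 78.7% of all genes and 79.1% of the genes not expressed. Their median was -0.81, against -0.43 over all genes. None of them was expressed, and the background was lower on each P-bi-TAT array.

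Among the other chains, COL20A1, which belongs to the fibril-associated collagens, was at 6.09, 6.48 and 6.04 on the untreated arrays and at 3.21, 3.56 and 4.35 on the P-bi-TAT arrays. No treated array reached the lowest untreated value, and no array was above its cutoff. The log2 difference was -2.50 (standard error 0.45, unadjusted p = 0.00092, adjusted p = 0.847, limma), and -2.25 (standard error 0.42, unadjusted p = 0.0006, adjusted p = 0.151, limma) without P-bi-TAT replicate 1. COL18A1, whose product is the source of the angiogenesis inhibitor endostatin, was at 4.37, 5.22 and 3.75 on the untreated arrays and at 2.52, 3.34 and 3.37 on the P-bi-TAT arrays. It stayed below the cutoff on all arrays, and the treated arrays all lay under the lowest untreated one, with a log2 difference of -1.37 (standard error 0.53, unadjusted p = 0.0358, adjusted p = 0.847, limma). COL12A1, a fibril-associated chain, was at 6.71, 7.10 and 6.86 on the untreated arrays and at 4.39, 6.53 and 6.34 on the P-bi-TAT arrays. COL23A1, a transmembrane collagen, was at 6.82, 6.51 and 7.66 on the untreated arrays and at 4.67, 6.39 and 6.47 on the P-bi-TAT arrays. For both, the groups did not overlap, the treated arrays being lower, and the log2 differences were -1.14 (standard error 0.64) and -1.15 (standard error 0.63). P-bi-TAT replicate 1 was the lowest for both, and without it the differences were -0.45 and -0.56. The other 18 of these chains had log2 differences from -1.22 in COL26A1 to 0.11 in COL8A1, and none of them was on any array above the cutoff.

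Over all 41 chains, 0 passed an adjusted p under 0.05 (limma, Benjamini-Hochberg over 21448 gene probe sets), as 0% of all genes did, and the smallest adjusted p among the chains was 0.847. At 1.5-fold and an unadjusted p under 0.05, 7 chains were lower in the treated group and 0 higher, against 4.98% and 0.192% of all genes. These were COL20A1, COL4A4, COL27A1, COL6A3, COL18A1, COL1A2 and COL4A2, of which only COL6A3 and COL1A2 were expressed. Over 19 alternative settings these limits were passed 19 times by COL20A1, 14 times each by COL4A4 and COL6A3, 13 times by COL27A1, 12 times by COL1A2, 5 times by COL18A1 and 4 times by COL4A2, always lower. With each array centred on its negative controls, COL20A1 alone was lower (log2 difference -1.91) and 2 chains, COL11A1 and COL11A2, were higher, both of them at or below the median of those controls. With the same centring and P-bi-TAT replicate 1 left aside, COL6A3 was at -0.54 (adjusted p = 0.424, limma) and COL1A2 at -0.70 (adjusted p = 0.511, limma). With quantile normalization in place of that centring, and replicate 1 again left aside, they were at -1.51 and -1.66. With the intensity trend removed instead, they were at -1.51 and -1.68. These combinations were added after the data were seen. The 7 became 3 without UNTREATED replicate 2 and 4 without UNTREATED replicate 1. The groups did not overlap in 12 chains with the treated arrays lower and in 0 with them higher, against 14.5% and 0.758% of all genes. The median log2 difference was -0.57 over the chains, with 33 below 0 and 8 above, against -0.43 over all genes, with 13921 below and 3766 above. By class it was -0.52 for fibrillar chains and -0.56 for the others. For the 3 expressed chains it was -1.68, against -0.56 over the 5301 expressed genes. With 3 chains this median is the value of COL6A3 itself, beside -2.03 in COL1A2 and 0.32 in COL6A2.

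Array by array, the chains had medians of -0.98, -0.47 and -0.53 against the untreated mean on P-bi-TAT replicates 1, 2 and 3, where all genes had -1.23, -0.022 and -0.0019. The 38 chains that were not expressed had -0.845, -0.43 and -0.51, where all genes not expressed had -0.849, -0.185 and -0.166. On replicate 1 these chains thus lay near the median of the genes not expressed, while on replicates 2 and 3 they lay further below. The expressed genes as a whole had medians of -2.46, 0.42 and 0.44 on the same arrays. COL6A3 stood at -2.82, -0.997 and -1.22 and COL1A2 at -3.54, -1.85 and -0.71, below the median of expressed genes each time. COL6A2 stood at -0.68, 0.67 and 0.97, above it each time. Without P-bi-TAT replicate 1, 6 chains passed the same limits in the lower direction and 2 in the higher, against 5.31% and 9.26% of all genes. COL6A1 and COL5A1 were the 2 higher ones, and COL20A1, COL4A4, COL6A3, COL27A1, COL19A1 and COL1A2 the lower ones. The median of the chains was then -0.45, against -0.015 over all genes and -0.18 over the genes not expressed. Of the chains, 0 passed the adjusted threshold.

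**Figure D3:**
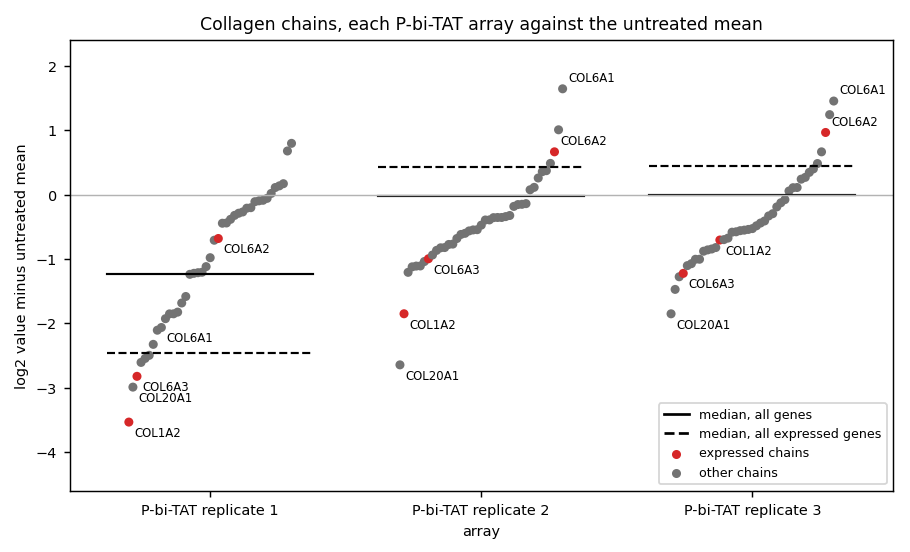
Log2 value of each of the 41 chains on each P-bi-TAT array minus its mean over the untreated arrays, with the chains sorted within each array. Solid and dashed lines give the medians over all genes and over the expressed genes, and COL6A3 and COL1A2 lie below the dashed line and COL6A2 above it on all 3 arrays.

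The genes that modify, fold and export collagen chains were looked at beside the chains. They hydroxylate prolines and lysines, hold the chains until the helix has closed and carry procollagen out of the endoplasmic reticulum. Of 14 measured genes of chain modification 11 were expressed, and of 14 of folding and export 10 were. SERPINH1, which encodes the collagen chaperone HSP47, was at 10.25, 9.71 and 10.12 on the untreated arrays and at 8.70, 11.95 and 12.34 on the P-bi-TAT arrays. P-bi-TAT replicates 2 and 3 were above each untreated array and replicate 1 below them, with a log2 difference of 0.97 (standard error 0.95, unadjusted p = 0.341, adjusted p = 0.871, limma). Without P-bi-TAT replicate 1 it was 2.12 (standard error 0.39, unadjusted p = 0.00059, adjusted p = 0.151, limma). SEC13, a coat protein of the vesicles that leave the endoplasmic reticulum, was at 11.72, 11.17 and 11.30 on the untreated arrays and at 9.88, 13.08 and 12.94 on the P-bi-TAT arrays, with log2 differences of 0.57 (standard error 0.88) with all arrays and 1.61 without replicate 1. P4HA1, a catalytic subunit of prolyl hydroxylase, was at 6.68, 8.56 and 9.48 on the untreated arrays and at 5.54, 10.16 and 10.36 on the P-bi-TAT arrays. The untreated arrays spread widely for this gene, and its log2 difference was 0.44 (standard error 1.40), or 2.02 without replicate 1. PPIB, a prolyl isomerase that works on unfolded chains, had log2 differences of 0.49 and 1.13 in the same order. CRTAP, which forms a complex with it, and PLOD2, a lysyl hydroxylase, were detected on all 6 arrays. Their log2 differences were -0.42 and -0.71 with all arrays, and 0.53 and 0.27 without replicate 1. With all 6 arrays, 0 of 14 and 0 of 14 genes of these lists passed 1.5-fold and an unadjusted p under 0.05. The medians of the lists were -0.29 and -0.50, against -0.43 over all genes and -0.56 over the expressed genes. In the lists 11 and 12 genes were below 0, and 3 and 2 above. SAR1B and SAR1A, of folding and export, were the lowest, at -1.47 and -1.02, or -0.16 and -0.29 without replicate 1. Without P-bi-TAT replicate 1, 3 of each were higher (COLGALT1, P4HA1 and PPIB, and SEC13, SEC24D and SERPINH1) and 0 lower, against 9.26% and 5.31% of all genes and 19.1% and 3.34% of the expressed genes, to which each of the 6 belongs. The medians of the lists were then 0.35 and 0.57, against -0.015 over all genes and 0.43 over the expressed genes. With the arrays also centred on their negative controls, a combination tried after the data were seen, SERPINH1 at 2.70 (adjusted p = 0.0386, limma) and SEC13 at 2.19 (adjusted p = 0.0394, limma) passed the adjusted threshold, which neither did in the other settings. This centring raises the difference of each gene alike, with COL6A3 going from -1.11 to -0.54 and COL1A1 from 0.17 to 0.75. The share of all genes that passed in this combination is not given, so that these genes are not read as particular.

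Of 15 measured genes that trim propeptides or crosslink fibrils, 3 were expressed, namely LOX and LOXL1, which are lysyl oxidases, and PCOLCE2, an enhancer of propeptide removal. PCOLCE2 was at 8.47, 8.57 and 8.91 on the untreated arrays and at 7.09, 9.87 and 9.95 on the P-bi-TAT arrays. P-bi-TAT replicates 2 and 3 were above each untreated array, and its log2 difference was 0.32 with all arrays and 1.26 without replicate 1. TGM2, a crosslinking transglutaminase, was at 5.87, 5.36 and 5.25 on the untreated arrays and at 4.20, 4.19 and 4.04 on the P-bi-TAT arrays. It was below the cutoff on all arrays, and no treated array reached the lowest untreated value, with a log2 difference of -1.35 (standard error 0.39, unadjusted p = 0.0105, adjusted p = 0.847, limma). It was the only gene of the list at 1.5-fold and an unadjusted p under 0.05.

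Of 10 measured collagen receptors, 3 were expressed. ITGB1, the shared beta subunit of the collagen-binding integrins, was at 11.17, 12.74 and 13.03 on the untreated arrays and at 7.53, 11.28 and 12.47 on the P-bi-TAT arrays, with a log2 difference of -1.89 (standard error 1.27), or -0.44 without P-bi-TAT replicate 1, and the groups overlapped. DDR2, a receptor kinase for fibrillar collagen, and CD44 were the others, and 0 of the 10 passed 1.5-fold and an unadjusted p under 0.05 with all arrays. Of 11 basement membrane partners, LAMC1 and LAMB1, which are laminin chains, were expressed, while HSPG2, NID1 and NID2 were on no array above the cutoff. LAMC1 was at 11.12, 12.03 and 11.19 on the untreated arrays and at 9.37, 11.06 and 11.18 on the P-bi-TAT arrays, with a log2 difference of -0.91 (standard error 0.61), or -0.33 without P-bi-TAT replicate 1, and overlapping groups. LAMA4, a laminin chain of vessel walls, was at 7.76, 7.24 and 6.36 on the untreated arrays and at 4.53, 5.91 and 5.78 on the P-bi-TAT arrays. The treated arrays all lay under the lowest untreated one, with a log2 difference of -1.72 (standard error 0.58, unadjusted p = 0.0215, adjusted p = 0.847, limma), and it was the only gene of that list past the same limits. Of 13 partners of fibrils, TNC and THBS1 were expressed, and KERA and FMOD, which encode small proteoglycans, passed those limits too, in the lower direction and at values below the cutoff. Over the remaining 5 arrays, without P-bi-TAT replicate 1, TGM2, LAMA4, KERA and FMOD still passed these limits in the lower direction, and PCOLCE2 and CD44 passed them in the higher. Over these 4 lists, of 15, 10, 11 and 13 genes, this is 4 lower and 2 higher, against 5.31% and 9.26% of all genes, and with all arrays it was 4 lower and 0 higher, against 4.98% and 0.192%. With all 6 arrays the medians were -0.50, -0.77, -0.57 and -0.49 for the lists in this order, against -0.43 over all genes.

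**Figure D4:**
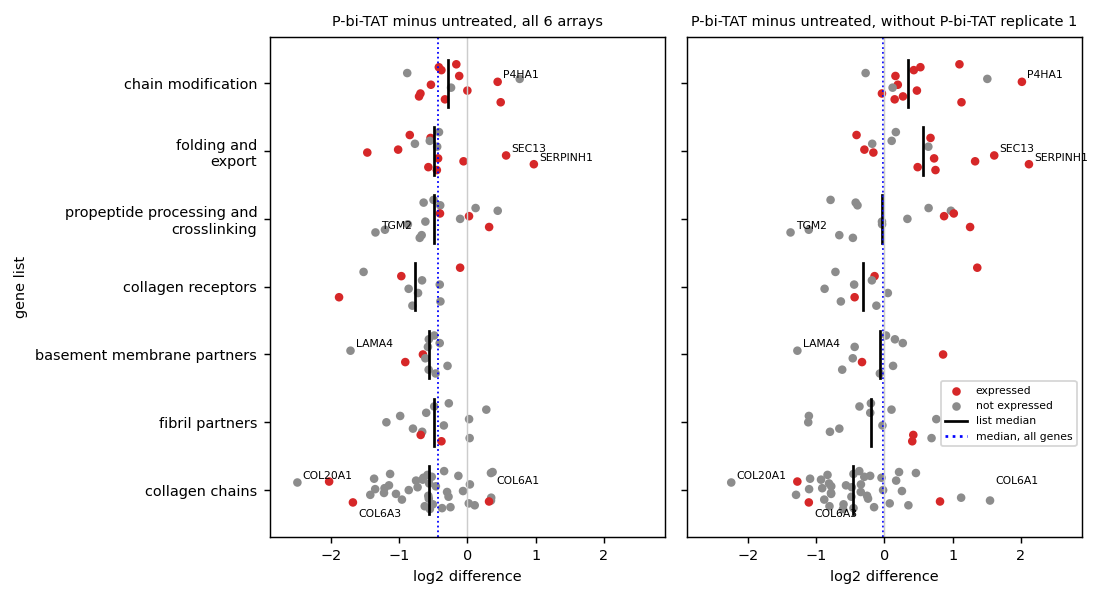
Log2 difference, P-bi-TAT minus untreated, of each gene of the lists that act on collagen and of the 41 chains, with all 6 arrays (left) and without P-bi-TAT replicate 1 (right). Bars give list medians and the dotted line the median of all genes, at -0.43 and -0.015, and the medians of the modification and folding lists lie to the right of that line without replicate 1 while that of the chains lies to its left at -0.45. Most genes of the modification and folding lists were expressed, while 38 of the 41 chains were not. Without replicate 1 the median was 0.43 over the expressed genes and -0.18 over the genes not expressed. With all 6 arrays the medians of the modification and folding lists were -0.29 and -0.50.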

How the data were processed

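Expression was measured on Clariom S arrays in 3 untreated and 3 P-bi-TAT samples of U87MG cells. The deposited values are log2 expression values of probe sets that the authors summarised and normalized. RMA, with Transcriptome Analysis Console 4.0.1.36, is given in the submitters' notes and SST-RMA in the methods, and the files do not settle between them. SST-RMA changes the spread of low and high values, so that the size of a log2 difference depends on it. The groups were compared with limma 3.58.1 in R 4.3.3 (lmFit and eBayes, no covariate), with Benjamini-Hochberg adjustment over 21448 gene probe sets, and 2903 control probe sets were left out. Only probe sets with 1 symbol were named (17709), and for each symbol the one with the highest mean over the 6 arrays was used. The number of arrays limits the precision.

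Values on each array are given for the expressed chains, the chains of types I, IV, V and VI, and the chains at 1.5-fold with an unadjusted p under 0.05. Of the partner lists, members with high means and those past the same limits were named, and other names were chosen after their values were seen. Many members whose difference turned without P-bi-TAT replicate 1 were not named. The chains and lists were chosen with earlier results of these data known. Alternatives covered array centring, quantile normalization, removal of the trend with intensity, the mean of probe sets, a filter on dim probe sets, array weights, a trended prior, the one-way test of the methods, a replicate block, other detection cutoffs and leaving out each array. The limma script was tested on simulated data.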

Additional observations from a re-analysis of the deposited data

How the results depend on the processing

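No alternative brought a chain past an adjusted p under 0.05 (limma). The count of 7 chains at 1.5-fold and an unadjusted p under 0.05 ranged from 3 to 8 when 1 array was left out, with both directions counted. It was 3 without UNTREATED replicate 2, 4 without UNTREATED replicate 1 and 8 (6 lower, 2 higher) without P-bi-TAT replicate 1. After quantile normalization it was 4, after median centring 3 and after background centring 3 (1 lower, 2 higher). It was 4 with the intensity trend removed, 4 with the dimmest probe sets left out, 11 (8 lower, 3 higher) with array weights and 4 in the one-way test of the methods. Where no split is given, all were lower. With the replicate block it was 6, and same-numbered arrays deviated together with r of 0.304, 0.0361 and 0.333, so that the numbers were not taken as pairs. The 3 expressed chains became 28 with the median of the negative controls, 7 with their 90th percentile, chosen after seeing the data, and 2 with their 99th. With 1 array left out, log2 differences changed sign and ranged from -0.0084 to 0.82 for COL6A2, from -0.31 to 1.55 for COL6A1, from -0.099 to 1.13 for COL5A1, from -1.37 to 0.17 for COL1A1, from -0.39 to 2.02 for P4HA1 and from -0.17 to 1.26 for PCOLCE2. COL1A1 also turned to 0.14 with array weights. Without P-bi-TAT replicate 1 and with background centring, a combination added after seeing the data, COL1A1 turned to 0.75, COL12A1 to 0.12, COL23A1 to 0.011, ITGB1 to 0.14 and LAMC1 to 0.25. In that combination SERPINH1 (2.70) and SEC13 (2.19) passed an adjusted p under 0.05 (limma), while COL6A3 was at -0.54 and COL1A2 at -0.70. The centring raises the difference of each gene alike, and the share of all genes that passed there is not given. Without P-bi-TAT replicate 1 and with quantile normalization, COL6A3 was at -1.51 and COL1A2 at -1.66. With the intensity trend removed instead, they were at -1.51 and -1.68. The cause of these changes was not tested. Of 466 values over all settings for the named genes and chain differences, 448 kept their sign and side of the threshold. Signal over background is the limit for the 38 chains that were not expressed.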
